A study of Bos taurus with 6 samples.

Results

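The genes described here encode the proteins of small nucleolar ribonucleoproteins (snoRNPs), the particles in which a guide RNA directs the modification of ribosomal RNA. They comprise 10 gene symbols: DKC1, NHP2, NOP10 and GAR1 of the box H/ACA core, NAF1 of box H/ACA assembly, FBL, NOP56, NOP58 and NHP2L1 of the box C/D core, and NOLC1, a chaperone of both kinds of particle. Every row of the authors' table with one of these symbols was taken, which gave 11 of 20707 rows, since 9 symbols had 1 row and NOP56 had 2. The set was chosen by the measured stage differences of NHP2 and GAR1, which belong to the same complex and differed in opposite directions. The changes of NHP2 and GAR1 are therefore given as a description with no test.

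The samples are individual bovine (Bos taurus) oocytes at 2 stages. MII oocytes were at metaphase of the second meiosis after 24 hours of maturation in vitro, and GV (germinal vesicle) oocytes were taken when follicles were aspirated and were still arrested in prophase. Both come from ovaries collected at slaughter, no genotype or treatment is labelled beyond maturation, and the labels' source field calls all samples matured in vitro, so stage was read from the titles. Each stage has 3 libraries, MII14c, MII15 and MII15c against GV14, GV14c and GV15. Values are RPKM (reads per kilobase of gene model, scaled to the mapped reads of the library), and cDNA synthesis with the kit used starts at poly(A) tails, so fewer transcripts and shorter tails cannot be told apart in a level.

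As background, box H/ACA particles isomerize uridine to pseudouridine, and box C/D particles methylate the 2'-hydroxyl of ribose. In the first, dyskerin (DKC1) is the enzyme, NOP10 and NHP2 sit beside it on the RNA, and GAR1 joins last, when it takes the place of the assembly factor NAF1. The same 4 core proteins bind telomerase RNA and the guide RNAs of Cajal bodies. In box C/D particles NHP2L1 (now named SNU13), a relative of NHP2 in the L7Ae family, binds the folded RNA first, NOP56 and NOP58 form the scaffold, and fibrillarin (FBL) is the methyltransferase. A fully grown oocyte largely stops making ribosomal RNA and stores mRNA made earlier, and nucleoli disperse when meiosis resumes.

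The depth recovered from low RPKM values was 21.28 to 32.59 M reads in MII libraries and 20.24 to 29.93 M reads in GV libraries, so for a 1 kb model 1 RPKM is 21.3 to 32.6 reads in MII and 20.2 to 29.9 in GV. The reads carry no molecular identifiers and PCR copies are counted with the rest, so such numbers describe counting error only. The columns GV14c and MII15c match no sample title and were used with their stage alone. Conversely, the samples titled GV15c and MII14 have no column of values. What the numbers and the letter c mean, and whether libraries of one number share an oocyte or an animal, is not stated. The p-values therefore reflect only how these libraries vary, which may be technical. Deviations from the stage mean over all tested genes were alike between MII14c and GV14c (Pearson r = 0.33), between MII15c and GV14c (0.261) and between MII15 and GV15 (0.427), barely so between MII15 and GV14 (0.0667), and opposite between MII15 and GV14c (-0.409). Libraries with the letter thus tended to stand apart from those without it. Adapter dilution, 1 in 50 for MII14c and MII15 and 1 in 30 and 1 in 10 for GV14 and GV15 per the labels, cannot be told apart from stage. All 11 oocyte markers found were at 1 RPKM or more in some library (summed level 3226 to 4137 RPKM in MII and 7327 to 10530 in GV). Of 17 cumulus and granulosa cell markers found, 7 reached 1 RPKM (summed 113.9 to 122.8 RPKM in MII and 98.0 to 179.8 in GV). The like sums hold opposite differences without overlap: STAR had 29.3 to 39.7 RPKM in MII and 67.1 to 136 in GV, HAS2 had 55.4 to 64.8 in MII and 11.6 to 18.9 in GV, and VCAN had 7.21 to 9.50 in MII and 2.35 to 3.89 in GV. FSHR, CYP19A1, INHA and AMH stayed under 0.4 RPKM and AMHR2, PTX3, LUM and NR5A1 were listed at 0. Blood cell markers summed to at most 0.229 RPKM in MII and 0.588 in GV, with HBB at 0. The part of other cells in the results was not tested.

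Changes were tested with limma on log2(RPKM + 1), MII minus GV, over 8671 genes that averaged 1 RPKM or more, adjusted after Benjamini and Hochberg, with calls made under 0.05. Of these genes 26.9% were called lower and 13.4% higher in MII, 40.3% in all. The lower genes were 66.7% of the calls with the deposited values, 55.0% with median-ratio scaling, 59.9% with TPM scaling and 45.4% with quantile normalization. The middle log2 change over tested genes was -0.16 with the deposited values, 0.05 with median-ratio scaling, -0.07 with TPM scaling and 0.22 with quantile normalization. Of the 11 snoRNP rows, 8 had a mean of at least 1 RPKM, while NAF1 and both rows with the symbol NOP56 did not. Besides NHP2 and GAR1, 6 rows were tested: NOP10, FBL and NHP2L1 were lower in MII, none was higher (limma, also none at an unadjusted p under 0.05), and DKC1, NOP58 and NOLC1 did not pass. The libraries of the stages did not overlap in 7 of the 11 rows, 4 with MII lower and 3 with MII higher. Of all tested genes 51.9% did not overlap, 32.1% with MII lower and 19.8% with MII higher. The 7 rows include NHP2 and GAR1, which chose the set, and NAF1, which was below the level tested. Their count therefore cannot be set against these shares. Among the 6 tested rows, NOP10, FBL and NHP2L1 lay apart with MII lower and NOP58 with MII higher.

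**Figure D1:**
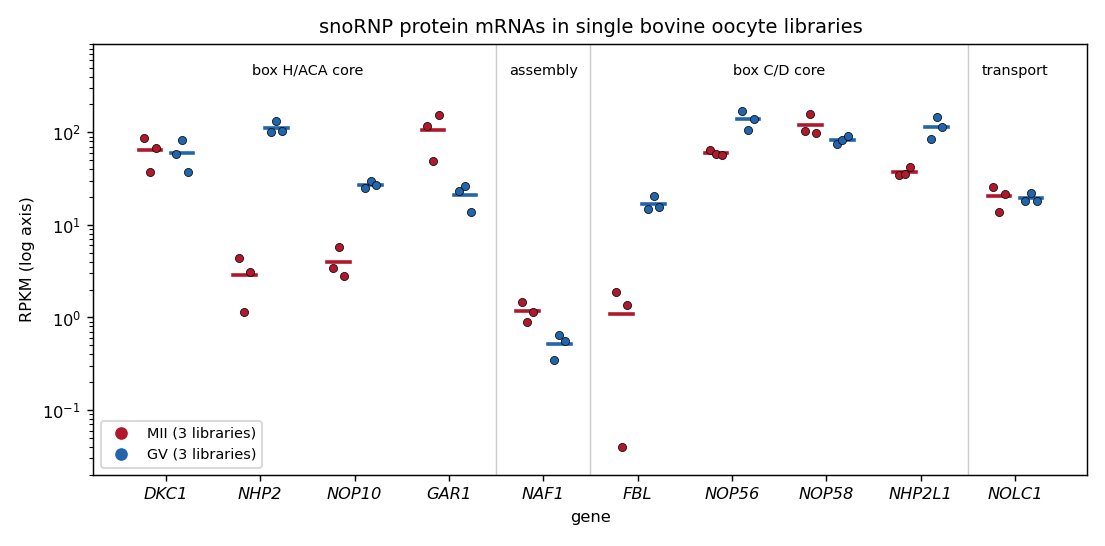
RPKM (log axis) of the 10 snoRNP protein genes in each MII library (red) and each GV library (blue), with a bar at the mean of 3 libraries. NOP56 is the row that the annotation names so, and the 2 rows near 0 that carry this symbol are not drawn. NHP2, NOP10, FBL, NOP56 and NHP2L1 lie lower in every MII library than in any GV library, and GAR1, NAF1 and NOP58 lie higher.

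Among the box H/ACA core proteins the 4 mRNAs took 3 courses: DKC1 did not differ detectably, NHP2 and NOP10 were lower in MII, and GAR1 was higher. DKC1, the pseudouridine synthase, had 87.3, 36.9 and 68.6 RPKM in MII14c, MII15 and MII15c, against 58.9, 82.7 and 37.7 RPKM in GV14, GV14c and GV15. The stages overlapped over most of their range, and MII15 and GV15 held nearly the same low level. The difference was 0.09 ± 0.37 on the log2 scale (SE, 95% interval -0.75 to 0.93; limma adjusted p = 0.869), so neither a fall nor a rise within that interval was detectable. DKC1 is ENSBTAG00000013045 on the minus strand of chromosome X from 39037446 to 39049378, with 15 coding exons (coordinates are those of the authors' annotation, whose build is not given in the sources used here).

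NHP2, the RNA-binding L7Ae-family protein of these particles, had 4.39, 1.14 and 3.12 RPKM in MII14c, MII15 and MII15c, against 100.2, 132 and 104 RPKM in GV14, GV14c and GV15. Every MII library was far below every GV library, and MII15 was the lowest of all. The mean was 2.88 ± 1.64 RPKM in MII and 112.3 ± 17.5 RPKM in GV (SD, n = 3 each), 39.0-fold lower in MII, and the log2 change was -4.96 ± 0.35 (SE; -5.42 to -4.58 over 17 processing alternatives). By level, NHP2 stood at percentile 66.4 to 74.0 of all table rows in MII libraries and at percentile 96.6 to 97.2 in GV libraries. The gene, ENSBTAG00000006374, lies on the minus strand of chromosome 7 from 40600444 to 40605473 with 4 coding exons. The last 273 nt of its model are shared with the converging gene RMND5B, which had 0.167 to 0.635 RPKM in MII and 2.80 to 6.58 RPKM in GV, so the neighbour's level was below that of NHP2 in every library.

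NOP10, the smallest core protein (64 amino acids in the annotated frame), which supports the active site of dyskerin, fell. It had 3.44, 5.71 and 2.79 RPKM in MII14c, MII15 and MII15c, against 25.2, 29.5 and 27.2 RPKM in GV14, GV14c and GV15. The GV libraries were tightly grouped, and the highest MII library, MII15, was still more than 4-fold below the lowest of them. The mean was 3.98 ± 1.53 RPKM in MII and 27.3 ± 2.16 RPKM in GV (SD, n = 3 each), with a log2 change of -2.55 ± 0.29 (SE; limma adjusted p = 0.000279). It is ENSBTAG00000025632 on the plus strand of chromosome 10 from 28351793 to 28355349, with 2 coding exons, and its model runs on for 2694 nt after the stop codon.

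GAR1, the glycine- and arginine-rich protein of the mature particle, had 118, 48.6 and 155 RPKM in MII14c, MII15 and MII15c, against 23.0, 26.5 and 13.8 RPKM in GV14, GV14c and GV15. All MII libraries were above all GV libraries, but the MII libraries were spread widely, with MII15 far below the other two. The mean was 107.2 ± 54.0 RPKM in MII and 21.1 ± 6.54 RPKM in GV (SD, n = 3 each), 5.08-fold higher in MII. The log2 change was 2.19 ± 0.42 (SE; 1.85 to 2.74 over the alternatives). Between libraries with the letter c it was 2.31 (2 MII, 1 GV) and between those without it 1.40 (1 MII, 2 GV). GAR1 is ENSBTAG00000000748 on the minus strand of chromosome 6 from 16747757 to 16755365, with 6 coding exons.

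NAF1, the assembly factor that GAR1 replaces, was the scarcest of the 10 genes in GV. It had 1.46, 0.898 and 1.15 RPKM in MII14c, MII15 and MII15c, which is 57, 24 and 47 reads, against 0.346, 0.650 and 0.551 RPKM in GV14, GV14c and GV15, which is 13, 22 and 14 reads. All MII libraries were above all GV libraries, yet in reads MII15 and GV14c differed by 2 only, since MII15 is less deep. With a mean of 0.842 RPKM it was below the level tested, and with no filter limma did not call it (adjusted p = 0.144). NAF1 lies on chromosome 6 from 2602609 to 2653192 on the plus strand.

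Ratios taken within a library do not change when the whole library is scaled by a common factor. NHP2 and GAR1 chose the set by their opposite differences, so ratios and shares that hold either of them are a description and no support. The ratio of GAR1 to NHP2 was 26.9, 42.8 and 49.8 in MII14c, MII15 and MII15c, against 0.230, 0.200 and 0.133 in GV14, GV14c and GV15. The ratio of GAR1 to DKC1 was 1.35, 1.32 and 2.26 in MII and 0.391, 0.320 and 0.367 in GV. NOP10 stood at 0.0394, 0.155 and 0.0407 of DKC1 in MII and at 0.428, 0.357 and 0.723 in GV, apart in all libraries (exact permutation p = 0.1, two-sided, the smallest that 3 against 3 allows). Of the summed RPKM of the 4 core mRNAs, GAR1 and DKC1 made up 52.6% to 67.6% and 29.9% to 41.0% in MII, against 7.55% to 11.1% and 20.6% to 30.5% in GV. NHP2 alone made up 1.23% to 2.06% in MII and 48.3% to 57.0% in GV.

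**Figure D2:**
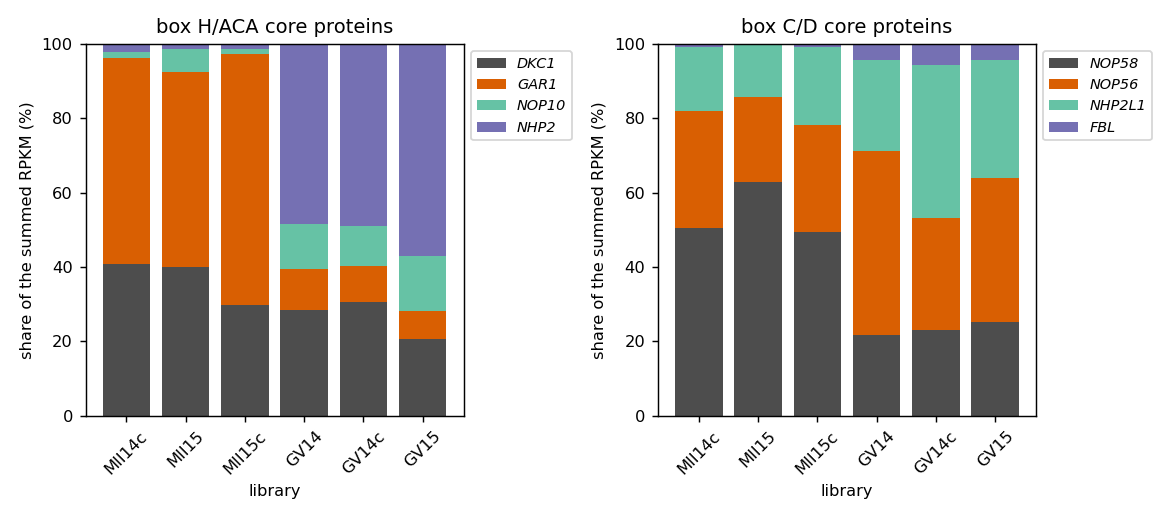
Share of the summed RPKM that each of 4 core mRNAs takes within a library, for box H/ACA (left) and box C/D proteins (right), with the 3 MII libraries to the left of the 3 GV libraries. NHP2 takes 48.3% to 57.0% of the box H/ACA sum in GV and at most 2.06% in MII, where GAR1 takes at least 52.6%, and NOP58 takes 49.5% to 62.8% of the box C/D sum in MII and 21.9% to 25.4% in GV. NHP2 and GAR1 chose the set, so the box H/ACA shares are a description only.

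Of the box C/D core proteins, the methyltransferase FBL and the RNA-binding NHP2L1 fell, as did NOP56 in the row that the annotation names, while NOP58 did not pass. FBL had 1.87, 0.0400 and 1.37 RPKM in MII14c, MII15 and MII15c, which is 69, 1 and 53 reads, against 14.9, 20.4 and 15.7 RPKM in GV14, GV14c and GV15. All MII libraries were below all GV libraries, and MII15 stood apart with a single read. The mean was 1.09 ± 0.945 RPKM in MII and 17 ± 2.98 RPKM in GV (SD, n = 3 each), with a log2 change of -3.22 ± 0.41 (SE; limma adjusted p = 0.00049). FBL is ENSBTAG00000002579 on the minus strand of chromosome 18 from 49659142 to 49718941 with 9 coding exons. The model of PSMC4, a proteasome ATPase, lies within its span on the other strand, and at 55.6 to 79.3 RPKM in MII and 78.1 to 89.2 RPKM in GV did not pass (adjusted p = 0.199).

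NHP2L1 had 34.8, 35.7 and 41.8 RPKM in MII14c, MII15 and MII15c, against 84.3, 148 and 113 RPKM in GV14, GV14c and GV15. The MII libraries lay close together, all below the GV libraries. The mean was 37.4 ± 3.79 RPKM in MII and 115.0 ± 31.7 RPKM in GV (SD, n = 3 each), with a log2 change of -1.56 ± 0.25 (SE; limma adjusted p = 0.00141). Both L7Ae-family mRNAs were thus lower in MII, but to unequal extents: the ratio of NHP2L1 to NHP2 was 7.94, 31.4 and 13.4 in MII libraries and 0.841, 1.12 and 1.09 in GV libraries. NHP2L1 is ENSBTAG00000006104 on the minus strand of chromosome 5 from 113255672 to 113264529 with 3 coding exons. A transcript discovered on the plus strand covers 6633 nt of the same span, and the labels do not say that strand was used, so reads of the 2 strands cannot be told apart.

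The 2 rows with the symbol NOP56 are short models for which no coding exon was taken from the annotation, and neither held a level worth comparing. ENSBTAG00000045517, of 517 nt on chromosome 26 from 29697181 to 29697697, was listed at 0 in all MII libraries and at 0.065, 0 and 0.192 RPKM in GV14, GV14c and GV15. ENSBTAG00000046931, of 450 nt on chromosome 1 from 61772360 to 61772809, had 0, 0 and 0.071 RPKM in MII14c, MII15 and MII15c and 0.232, 0.172 and 0 RPKM in GV14, GV14c and GV15. The annotation, however, lists 470 pooled reads for this model, beside 858 for FBL. Why its RPKM is so low was not tested.

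The annotation gives the name NOP56 to ENSBTAG00000018812, on the minus strand of chromosome 13 from 52983685 to 52988922 with 12 coding exons, whose row in the authors' table has no symbol. It was added after its values were seen. This row had 64.6, 57.8 and 57.0 RPKM in MII14c, MII15 and MII15c, against 169, 107 and 138 RPKM in GV14, GV14c and GV15. All MII libraries were below all GV libraries, with the MII libraries close together. The mean was 59.8 ± 4.19 RPKM in MII and 137.9 ± 30.8 RPKM in GV (SD, n = 3 each), with a log2 change of -1.17 ± 0.22 (SE; limma adjusted p = 0.00356). Read by symbol alone, NOP56 would have been taken as nearly undetected in both stages, whereas by this row it had the highest GV mean of the 10 genes. In GV14c, however, NHP2L1 (148 RPKM) and NHP2 (132 RPKM) were above it.

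NOP58, the partner of NOP56 in the scaffold, had 103, 158 and 97.9 RPKM in MII14c, MII15 and MII15c, against 74.9, 83.0 and 90.6 RPKM in GV14, GV14c and GV15. All MII libraries were above all GV libraries, though MII15c and GV15 were close. The log2 difference of 0.50 ± 0.24 (SE, 95% interval -0.04 to 1.03) did not pass (limma adjusted p = 0.125). It passed after quantile normalization (adjusted p = 0.0366) and in a fit that also held the letter c (adjusted p = 0.0344), and adjusted p lay between 0.0344 and 0.29 over the 17 alternatives. Within a library, NOP56 stood at 0.625, 0.365 and 0.582 of NOP58 in MII14c, MII15 and MII15c, against 2.25, 1.29 and 1.52 in GV14, GV14c and GV15, so which partner was the more abundant differed in all libraries of the 2 stages (exact permutation p = 0.1, two-sided, the smallest possible). NOP58 is ENSBTAG00000005517 on the plus strand of chromosome 2 from 91187961 to 91227105 with 15 coding exons.

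NOLC1, also called Nopp140, a phosphoprotein that binds both kinds of particle on their way through nucleoli and Cajal bodies, had 25.4, 13.9 and 21.5 RPKM in MII14c, MII15 and MII15c, against 18.2, 21.96 and 18.1 RPKM in GV14, GV14c and GV15. The MII libraries spanned the whole GV range. The log2 difference was 0.02 ± 0.28 (SE, 95% interval -0.60 to 0.65; limma adjusted p = 0.95). It is ENSBTAG00000007435 on chromosome 26 from 22692692 to 22702577 on the plus strand, with 13 coding exons.

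**Figure D3:**
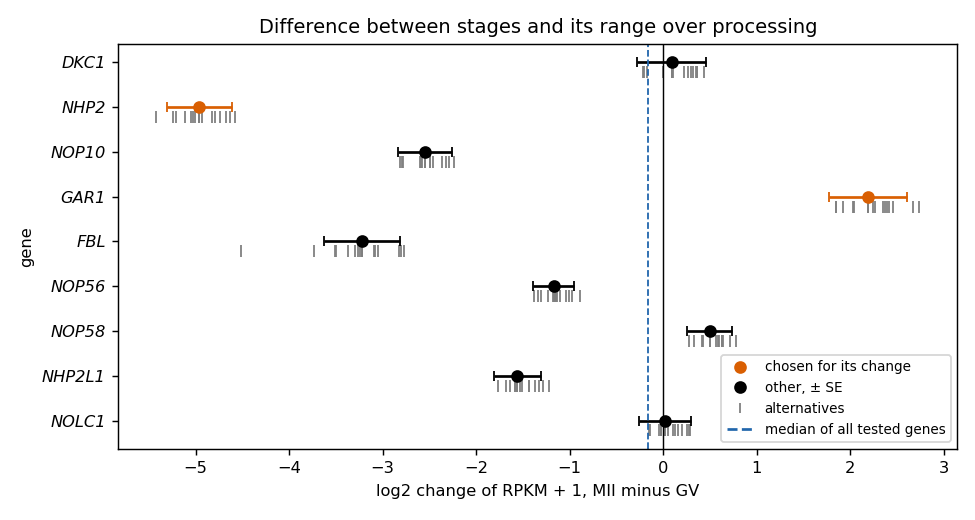
Difference of log2(RPKM + 1), MII minus GV, of the 9 snoRNP protein genes in the fit, with SE. NHP2 and GAR1 (orange) chose the set and are drawn without a test. The others are black, and NOP56 is the row added after its values were seen. Grey ticks give the value under each of 17 alternatives, and the dashed line the median of all tested genes (-0.16). NOP10, FBL, NOP56 and NHP2L1 stay left of 0 under every alternative, while DKC1 and NOLC1 fall on both sides of it.

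NOP10, FBL, NHP2L1 and NOP56 were called lower by limma under all 17 alternatives. Their highest adjusted p-values were 0.0102, 0.0119, 0.0182 and 0.0305, the first 3 without the columns that match no title and the last after median-ratio scaling. Between libraries with the letter c (2 MII, 1 GV) the log2 differences were -2.89 for NOP10, -3.04 for FBL, -1.93 for NHP2L1 and -0.81 for NOP56, and between those without it (1 MII, 2 GV) they were -2.02, -3.97, -1.43 and -1.39. DKC1 stood at -0.09 and -0.34 in these comparisons and NOLC1 at 0.09 and -0.36.

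The order of levels, which RPKM gives per length, differed between the stages. In MII it was NOP58 (119.8 RPKM), GAR1, DKC1, NOP56, NHP2L1, NOLC1, NOP10, NHP2, NAF1 and FBL (1.09 RPKM), with neighbours overlapping except for NOP56 with NHP2L1, NHP2L1 with NOLC1 and NOLC1 with NOP10. In GV it was NOP56 (137.9 RPKM), NHP2L1, NHP2, NOP58, DKC1, NOP10, GAR1, NOLC1, FBL and NAF1 (0.516 RPKM), with neighbours overlapping except for NHP2 with NOP58, DKC1 with NOP10 and FBL with NAF1. FBL, the enzyme of the box C/D particle, was the lowest of its core proteins in every library of both stages, at 0.0159% to 0.912% of their summed RPKM in MII and 4.33% to 5.69% in GV.

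Within MII, the library MII15 held the lowest value for DKC1, NHP2, GAR1, NAF1, FBL and NOLC1, 6 of the 10 genes, close to the 56.9% of all tested genes that were lowest there. NOP10 and NOP58 were highest in MII15. On the log2(RPKM + 1) scale MII15 lay below the MII mean by 0.97 for GAR1, 0.88 for FBL, 0.76 for NHP2 and 0.70 for DKC1, and above it by 0.47 for NOP10 and 0.43 for NOP58. The median deviation of all tested genes in MII15 was -0.19. Among GV libraries, GV14c held the highest value for 8 of the 10 genes, where it was the highest for 48.6% of all tested genes, and NOP56 was lowest there.

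Over the 6 libraries, the genes whose log2(RPKM + 1) followed NHP2 most closely were C12orf29 (Pearson r = 0.9995), MRPL30, a mitochondrial ribosomal protein (0.9993), and LDHB, a lactate dehydrogenase subunit (0.9989). C12orf29 had 2.53 to 5.77 RPKM in MII and 53.6 to 63.9 RPKM in GV. Those that followed GAR1 most closely were NARG2, a transcription elongation protein (0.9965), FKBP5, a co-chaperone of steroid receptors (0.9965), and LYPLAL1 (0.9952). FKBP5 had 8.49 to 16.8 RPKM in MII and 3.10 to 4.66 RPKM in GV. These are the highest of 4545 genes compared, 152 of which had r above 0.99 with NHP2 and 7 with GAR1, and since the stages lie apart, r mostly restates the stage difference.

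Some snoRNP protein genes also carry snoRNAs in their own introns. In the annotation 11 snoRNAs lie between coding exons of 3 of these genes on the same strand, 3 of the box H/ACA and 8 of the box C/D kind. DKC1 holds 2 of the box H/ACA kind, SNORA36 and SNORA56. NOP56 holds 5, SNORD110, SNORA51, SNORD86, SNORD56 and SNORD57, and NOP58 holds 4, a pair named SNORD70, SNORD11B and SNORD11. The other 7 genes hold none. Of the 3 hosts, DKC1 and NOP58 did not pass the test and NOP56 was lower in MII, and the snoRNAs themselves were not measured here.

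**Figure D4:**
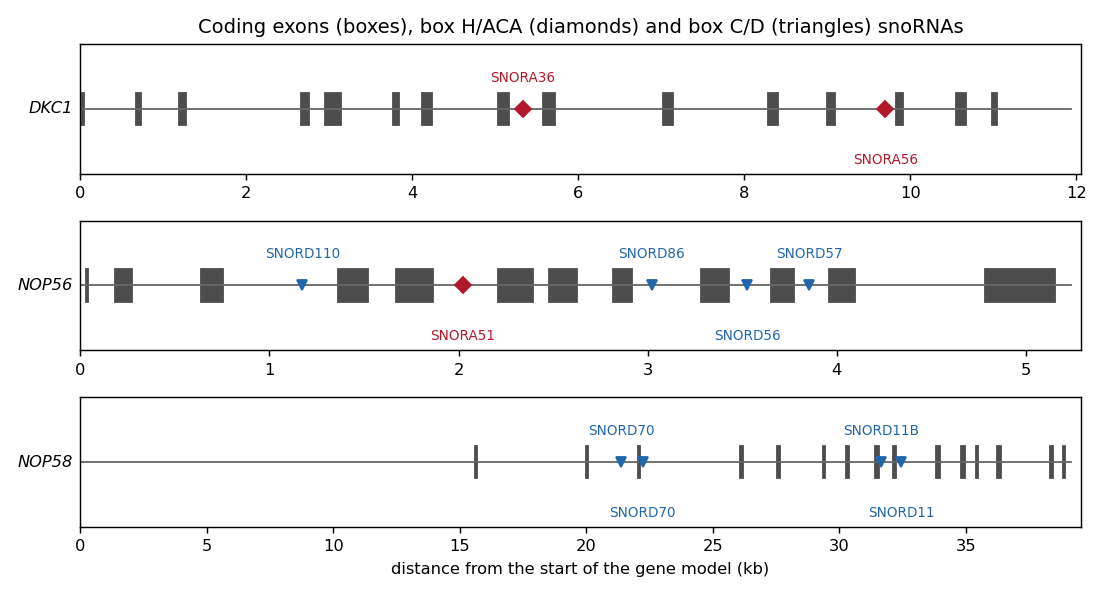
Gene models of DKC1, NOP56 and NOP58 drawn to scale by distance from the start of the model in kb, with coding exons as boxes, box H/ACA snoRNAs as red diamonds and box C/D snoRNAs as blue triangles. All 11 snoRNAs fall between coding exons, 2 in DKC1, 5 in NOP56 and 4 in NOP58.

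Assembly factors of both particles were measured as well, from lists put together with earlier results known. SHQ1, which shields dyskerin before NAF1 binds, rose, with 36.2, 48.8 and 41.0 RPKM in MII14c, MII15 and MII15c against 26.2, 16.4 and 19.6 RPKM in GV14, GV14c and GV15 (log2 change 1.00 ± 0.25, SE; limma adjusted p = 0.0131). SHQ1 did not pass without the columns that match no title. Of 8 tested box C/D assembly factors, 4 fell, 1 rose and 3 did not pass (median log2 change -1.14, against -0.16 for all tested genes). That is 50.0% lower and 12.5% higher, beside 26.9% and 13.4% of all tested genes. PIH1D1, a subunit of the R2TP chaperone complex, fell to 1.40 ± 0.853 RPKM in MII, against 26.4 ± 4.76 in GV (SD, n = 3). Its log2 change was -3.57 ± 0.35 (SE; limma adjusted p = 0.000128). RUVBL2, an ATPase of the same complex, fell to 15.8 ± 5.89 RPKM in MII, against 96.1 ± 13.6 in GV (log2 change -2.58 ± 0.28). HSP90AB1, a cytosolic HSP90, was the one that rose (384.4 ± 67.1 RPKM in MII, 213.8 ± 35.5 in GV), but 2 rows carry its symbol and the call was lost without GV14, without MII15c or without the columns that match no title.

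Of 14 transport and Cajal body proteins, NOLC1 among them, 5 fell, 1 rose and 8 did not pass (3 fell and none rose without MII15c). The shares were 35.7% lower and 7.14% higher, beside 26.9% and 13.4% of all tested genes. PHAX, the adaptor that carries capped small RNAs, was the one that rose, to 107.1 ± 10.4 RPKM in MII, against 60.04 ± 5.12 in GV (SD, n = 3). Its log2 change was 0.82 ± 0.20 (SE; limma adjusted p = 0.01). NCBP1, of the nuclear cap-binding complex, fell to 11.6 ± 1.75 RPKM in MII, against 27.9 ± 1.64 in GV. DDX20, of the SMN complex, fell to 23.9 ± 2.80 RPKM in MII, against 48.4 ± 8.09 in GV. Of 7 tested telomerase and telomere proteins beside the shared core, 3 fell and 4 did not pass (limma, none higher also at an unadjusted p under 0.05). However, 1 rose without MII15, and likewise 1 after quantile normalization and 1 with library weights. The share lower was 42.9%, beside 26.9% of all tested genes, and WRAP53 is counted in the transport list too. TINF2 and TERF2IP of the shelterin complex fell by 1.47 and 1.36 on the log2 scale. WRAP53, which directs Cajal body guide RNAs, had 0.838, 0 and 0.528 RPKM in MII14c, MII15 and MII15c, against 4.10, 9.12 and 1.32 in GV14, GV14c and GV15, and its call (limma adjusted p = 0.0226) was lost without GV14, GV14c, MII15 or MII15c in turn.

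Other enzymes modify RNA without a guide. Of 10 tested stand-alone pseudouridine synthases, 5 fell, 5 did not pass and none rose (limma, also none at an unadjusted p under 0.05). The share lower was 50.0%, beside 26.9% of all tested genes, of which 13.4% were higher. The count of falls was 2 without GV14 or without GV14c, 3 without MII15, 1 without MII15c and 1 with no filter on low genes. After quantile normalization 1 of this list rose, and 1 did in the fit that held the letter c. PUS3 fell to 5.29 ± 2.40 RPKM in MII, against 26.6 ± 7.14 in GV (SD, n = 3). Its log2 change was -2.17 ± 0.37 (SE; limma adjusted p = 0.00186). RPUSD4, a mitochondrial one, fell by 1.74 on the log2 scale and did not pass without MII15c. Of 10 tested ribosomal RNA methyltransferases and their partners, 7 fell, 2 did not pass and TRMT112 rose (limma adjusted p = 0.0146, lost without GV14, GV15 or MII15c). In this list 70.0% were lower and 10.0% higher. EMG1, which modifies a pseudouridine of the small subunit, fell to 4.81 ± 1.22 RPKM in MII, against 67.4 ± 8.47 in GV (log2 change -3.57 ± 0.26; limma adjusted p = 2.9e-05). DIMT1 fell to 25.1 ± 6.16 RPKM in MII, against 155.6 ± 2.91 in GV.

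Nucleolar proteins with which snoRNPs work changed in both directions. Of 39 tested proteins of the small subunit processome, which the U3 box C/D particle nucleates, 8 fell, 3 rose and 28 did not pass. These are 20.5% lower and 7.69% higher, beside 26.9% and 13.4% of all tested genes. Which share of falls was the larger depended on the fit: 15 of the 39 fell when the fit held the letter c, against 2975 of all 8671 genes, and 13 fell without MII14c, against 2246 of 8699 genes. The rises numbered 6 to 8 under the 3 other scalings and 5 without MII15. IMP4, a U3-associated protein, fell to 1.38 ± 0.277 RPKM in MII, against 36.8 ± 5.70 in GV (SD, n = 3). Its log2 change was -3.98 ± 0.27 (SE; limma adjusted p = 2.57e-05), and RCL1 fell by 2.51 on the log2 scale. UTP20 rose to 86.1 ± 5.46 RPKM in MII, against 34.0 ± 9.07 in GV (log2 change 1.35 ± 0.25), and PNO1 and WDR75 rose as well (1.13 and 0.81; the call of WDR75 was lost without GV15).

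Of 31 tested large subunit assembly factors, 14 fell and 2, GTPBP4 and DDX18, rose (9 fell without GV14 and 8 without MII15c, and 1 rose without GV14, GV15 or MII15c). That is 45.2% lower and 6.45% higher, beside 26.9% and 13.4% of all tested genes. RPF1 and RRS1 fell by 1.69 and 1.72 on the log2 scale. GTPBP4 rose to 238.2 ± 46.4 RPKM in MII, against 104.5 ± 12.6 in GV. Of 17 tested nucleolar scaffold and RNA polymerase I proteins, 5 fell and 2 rose (3 fell without GV15 or MII15c, 4 rose without MII14c, and 3 to 6 rose under the 3 other scalings). These are 29.4% lower and 11.8% higher, close to the 26.9% and 13.4% of all tested genes. POLR1E, a polymerase subunit, fell to 36.1 ± 10.3 RPKM in MII, against 255.2 ± 34.4 in GV, and POLR1D fell by 2.86 on the log2 scale. TTF1, the termination factor, rose to 41.3 ± 3.59 RPKM in MII, against 20.04 ± 2.29 in GV, and RRN3, an initiation factor, rose by 0.98 on the log2 scale. Of 6 tested RNase P and RNase MRP proteins, 4 fell, among them POP5 and POP7 (log2 changes -2.94 and -1.89), and RPP14 rose (1.00), which did not pass without GV14, GV15, MII14c or MII15c. In this list 66.7% were lower and 16.7% higher. Without the columns that match no title, which leaves 2 MII and 2 GV libraries, the counts of falls were smaller: 6 large subunit factors, 4 methyltransferases, 2 polymerase I or scaffold proteins, 2 RNase P or RNase MRP proteins, and 1 each of the pseudouridine synthases, the transport proteins and the telomerase proteins. The calls of NCBP1 and TERF2IP were among those lost. In the same setting no gene rose among the polymerase I and scaffold, transport, methyltransferase, and RNase P and RNase MRP lists, so that TTF1, RRN3, PHAX, TRMT112 and RPP14 did not pass, nor did WDR75 of the processome.

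**Figure D5:**
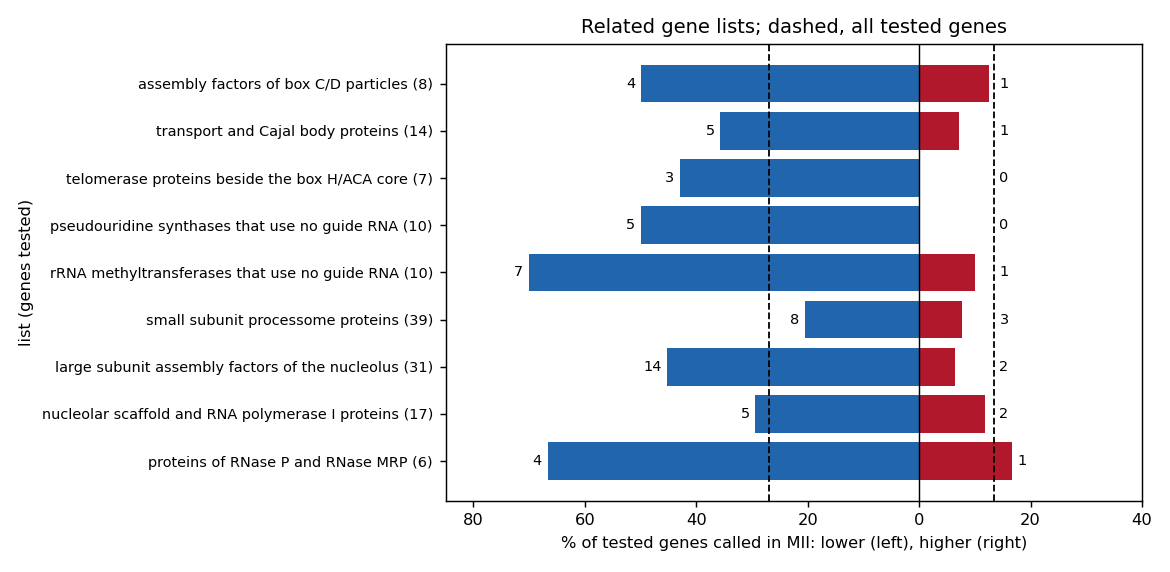
Percent of the tested genes of 9 related lists that limma called lower (left, blue) or higher (right, red) in MII, with the number called beside each bar, the number tested in parentheses and dashed lines at the shares of all tested genes, 26.9% lower and 13.4% higher. Box H/ACA assembly, where SHQ1 alone was tested, is not drawn, and the shares lower run from 20.5% in the small subunit processome to 70.0% in the methyltransferases.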

How the data were processed

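RPKM of 20707 Ensembl genes in 6 libraries were made and deposited by the authors, per the file headers. Aligner, counting tool and build: not given in the sources used here. DESeq stands in the submitters' processing notes with no role. Coordinates, counted from 1, come from the other file the authors deposited, Ensembl models extended with CLC bio transcript discovery per its notes. The members and lists were chosen with earlier results of these data known. From the RPKM, genes with a mean of at least 1 were fitted on log2(RPKM + 1) by lmFit and eBayes (trend on) of limma 3.58.1 under R 4.3.3. The added 1 understates changes of low genes. Count models were left out, as the unit is RPKM. The fit was also run on simulated data, whose outcome is not given here. Their noise was independent between libraries, so they do not cover deviations that libraries share. Depth was recovered as the smallest at which low values of 3711 coding-only models were whole reads; 89.1% to 96.7% of them came within 0.1 of a whole read. Reads are printed for NAF1 in both stages and for FBL in MII, where the model length gave whole reads within 0.1. The higher GV values of FBL did not come that near. Genes were named by a rule: every member row, up to 2 calls of smallest p per direction from each list (all, if at most 3), and the 3 genes most correlated with NHP2 and with GAR1. Where rows share a symbol, the row of highest mean stands for it in lists. Of the genes named from the lists, this holds for HSP90AB1, TRMT112, POLR1D, DDX18 and RPP14, with 2 rows each. The lists overlap in some genes, which are counted in each, as between methyltransferases and large subunit factors. Alternatives were another pseudocount (0.1), other filters (5 or none), 3 scalings, no trend, library weights, terms for the number or letter in the library name, and leaving out libraries.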

Additional observations from a re-analysis of the deposited data

How the results depend on the processing

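Of the tested members, NOP10, FBL, NHP2L1 and NOP56 kept direction and call under all 17 alternatives. NHP2 and GAR1 also kept their direction, but they chose the set by this difference, so this is a description and no support. The NOP58 difference passed after quantile normalization (0.71) and in the fit that held the letter c (0.60), so 1 member was called higher in each, against 0 in the planned fit. Uncalled values that changed sign were DKC1 (-0.22 with the letter c, -0.20 to 0.44 with 1 library left out) and NOLC1 (-0.14, and -0.15 to 0.26). Over all genes, 2329 were lower and 1162 higher; 1286 and 357 without the columns that match no title, 2133 higher after quantile normalization, 2262 with library weights, and 588 to 1335 higher with 1 library left out. After median-ratio scaling the levels of NOP56 and NHP2L1 in MII were 66.3 and 41.7 RPKM, and that of NOP10 in GV 24.9 RPKM. The causes were not tested. With the number in the library name as a replicate block, 1141 genes were higher and 2134 lower, and no call of a member changed. Of the same-numbered pairs, MII15 with GV15 (r = 0.427) and MII14c with GV14c (0.33) deviated alike, while MII14c with GV14 (-0.00826) and MII15c with GV15 (-0.226) did not, so the numbers were not taken to pair the libraries. Depth limits NAF1 and FBL in MII, with 24 to 57 and 1 to 69 reads.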

Other observations

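Genes that carry snoRNAs in their introns, looked at after the data were seen, were called at shares close to those of all genes. Of 143 tested genes with an annotated snoRNA inside the coding span, 39 (27.3%) were lower and 19 (13.3%) higher in MII in limma's test, against 26.9% and 13.4% of all tested genes. Among them, 11 of 20 ribosomal protein genes were lower and 1 higher (median log2 change -1.11), and of the 123 others 28 were lower and 18 higher (median -0.01, against -0.16 for all tested genes).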
